A study of Mus musculus with 12 samples.

Results

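The genes described here are 9 genes through which noradrenaline is sensed and cAMP is made and removed in subcutaneous white adipose tissue (scWAT). They were taken by gene name from the count tables, with earlier results of these data known, and are 4 adrenergic receptors (Adrb1, Adrb3, Adra1a and Adra2a), the stimulatory G protein gene Gnas, the adenylyl cyclase Adcy3, the phosphodiesterases Pde3b and Pde4d, and the regulator of G protein signaling Rgs2. They were 9 of 55401 genes in the tables, and all 9 were among the 16540 genes that passed the filter on low counts. RNA was sequenced from the scWAT of female mice that were 16 weeks old when treatment began. The 4 groups of 3 libraries compared were wild-type mice at 30°C or at 8°C and homozygous Jmjd1a mutants, called Jmjd1a HY/HY, at the same temperatures. Each treatment lasted 1 week and followed 1 week at 30°C for all mice, so no group was kept at room temperature. HY/HY mice carry on both alleles a knock-in that replaces a histidine of the H3K9 demethylase JMJD1A with tyrosine, which takes away its catalytic activity. The mutation was made in C57BL/6J eggs and is present in every cell, and the females came from 1 of the knock-in lines. The comparison of 8°C with 30°C in each genotype addressed the response to cold, and the comparison of the genotypes at each temperature addressed the part of JMJD1A catalytic activity in it.

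In cold, sympathetic nerves release noradrenaline in adipose tissue. The β-adrenergic receptors couple to the stimulatory G protein and raise cAMP, α2 receptors couple to the inhibitory G protein and lower it, and α1 receptors act through another G protein and calcium. Phosphodiesterases break cAMP down, and together these steps set lipolysis and the expression of thermogenic genes in adipocytes, where the β3 receptor is the best known receptor of the family in rodents.

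Gnas, Adcy3 and Pde4d, 3 of the 9 genes, rose in wild-type mice at 8°C and were lower in HY/HY than in wild-type mice at 8°C. The 300 bases around a start site of each, from 250 bases before to 50 after it, are given here with those of Rgs2, whose single window held 2 matches to the motif searched. The sequences come from RefSeq on mm10, where 6 of the 9 genes matched and no window was used for Adrb3, Adra1a and Pde3b. Capitals mark TGACG or its reverse complement CGTCA, the 5-base part of the cAMP response element TGACGTCA.
Gnas, chr2:174329756-174330055, plus strand, the most downstream of its 4 start sites: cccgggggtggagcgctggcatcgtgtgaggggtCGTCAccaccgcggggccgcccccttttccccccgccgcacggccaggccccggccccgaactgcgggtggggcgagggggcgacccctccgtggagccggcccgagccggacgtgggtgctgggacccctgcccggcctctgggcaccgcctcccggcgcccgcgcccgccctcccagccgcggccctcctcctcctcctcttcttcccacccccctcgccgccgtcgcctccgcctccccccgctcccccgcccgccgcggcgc
Adcy3, chr12:4133147-4133446, plus strand, the more upstream of its 2 start sites: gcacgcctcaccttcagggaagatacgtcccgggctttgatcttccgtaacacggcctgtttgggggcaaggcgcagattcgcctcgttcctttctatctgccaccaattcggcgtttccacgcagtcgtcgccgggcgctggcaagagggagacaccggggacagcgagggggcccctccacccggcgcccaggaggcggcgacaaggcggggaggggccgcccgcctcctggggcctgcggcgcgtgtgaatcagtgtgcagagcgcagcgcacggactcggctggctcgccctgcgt
Pde4d, chr13:108653927-108654226, plus strand: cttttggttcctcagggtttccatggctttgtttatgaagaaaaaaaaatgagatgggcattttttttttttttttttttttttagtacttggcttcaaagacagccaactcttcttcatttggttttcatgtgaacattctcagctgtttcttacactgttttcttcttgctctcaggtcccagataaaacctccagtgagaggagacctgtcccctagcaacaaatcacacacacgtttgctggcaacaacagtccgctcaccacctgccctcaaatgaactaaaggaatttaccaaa
Rgs2, chr1:144004100-144004399, minus strand: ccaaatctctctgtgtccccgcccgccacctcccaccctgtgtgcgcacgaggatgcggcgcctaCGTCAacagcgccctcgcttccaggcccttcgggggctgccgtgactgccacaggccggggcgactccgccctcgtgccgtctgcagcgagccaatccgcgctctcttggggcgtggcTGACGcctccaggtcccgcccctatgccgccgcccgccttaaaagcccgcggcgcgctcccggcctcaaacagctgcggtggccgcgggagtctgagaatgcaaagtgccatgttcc
The 5-base part was present in 20.8% of the 32851 promoter windows of the table and in 6 of the 10 windows of these genes, which belong to Adrb1, Adra2a, Gnas and Rgs2 and of which a pair of Gnas windows overlap. The Gnas window shown held it once, beginning 216 bases before the start, and the Rgs2 window held it at 185 and 67 bases before the start. The full element was in 1.79% of all windows and in none of the 10 windows of these genes. The Gnas window shown was 81.7% G and C, those of Rgs2 and Adcy3 70.0% and 68.7%, and that of Pde4d 39.7%, against a median of 52.7% over all windows.

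The libraries held from 13592629 to 26352081 counts on genes of the sense strand. Values are given as CPM, counts per 1e+06 counts, on library sizes scaled by the trimmed mean of M-values (TMM). The targeted gene Kdm3a, which encodes JMJD1A, lay at 35.7 to 61.7 CPM in the 12 libraries, and the counts do not tell the alleles apart. Markers of white adipocytes, such as Adipoq and Plin1, had counts in every group, and the summed level of 6 of them was from 12490 to 25300 CPM at 30°C. At 8°C it was from 10980 to 12430 CPM in wild-type and from 15870 to 19330 CPM in HY/HY mice, with 2 of the 6 called higher in HY/HY mice beside 1.51% of all genes, and its part in the genotype differences at 8°C was not tested. The summed level of 5 mammary epithelium markers was from 1995 to 3610 CPM in wild-type mice at 30°C and from 506.1 to 1452 CPM in the other groups. With cold in wild-type mice 1 of the 5 was called lower, beside 6.93% of all genes, and the part of this tissue was not tested. The 2 libraries that stood apart were both kept at 30°C. Wild-type replicate 2 at 30°C held 961.5 CPM of 5 skeletal muscle transcripts, against 2.60 to 21.1 CPM in the other 11 libraries, and HY/HY replicate 3 at 30°C was nearest to an HY/HY library at 8°C rather than to its own group. The median log2 change with cold over all genes was -0.069 in wild-type mice on this scale and -0.407 on library totals without TMM, and -0.015 and -0.149 in HY/HY mice. Nothing in the labels says more of the 3 replicates of a group than that they are separate samples, so p-values measure the spread between these samples. Calls of the 9 genes that changed without both of these libraries are given beside the gene concerned. For other genes named below, only calls lost in this way are given. Because tissue was sequenced in bulk, a lower level may mean fewer cells of a type or less RNA in each cell, which cannot be told apart.

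**Figure D1:**
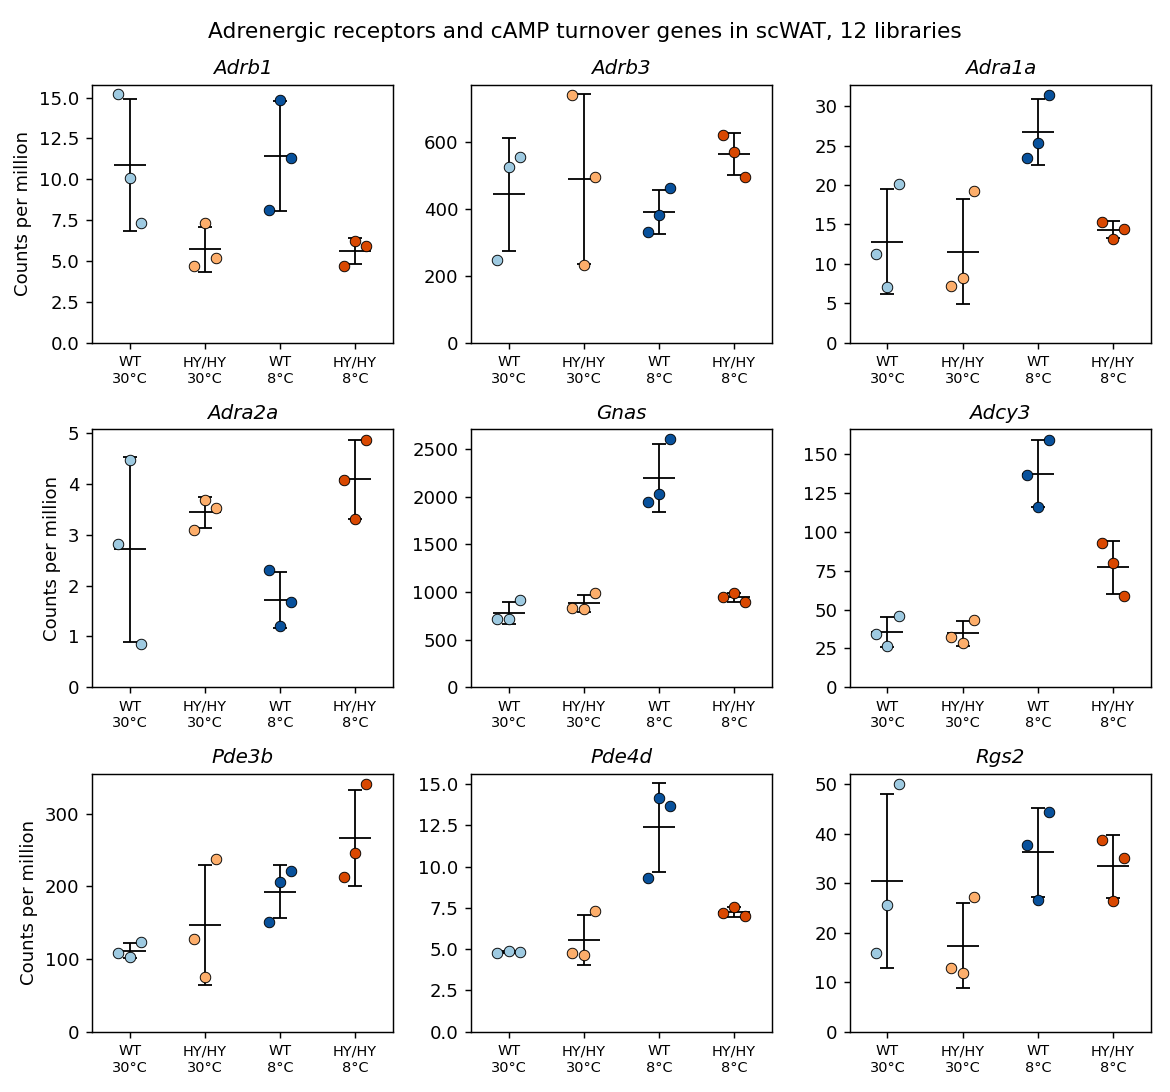
Level of each of the 9 genes (y axis, CPM, from 0) in the 12 scWAT libraries by genotype and temperature (x axis). Points are libraries, the horizontal bar is the group mean and the whiskers are 1 SD (n = 3). The 3 wild-type libraries at 8°C lie above all other libraries for Gnas (1944 to 2608 CPM), Adcy3 and Pde4d, while for Rgs2 the groups overlap, and for Adrb3 they overlap except between the genotypes at 8°C.

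Of the receptors, none passed the test in any comparison. On mm10 Adrb3 lies at chr8:27225776-27230845, Adrb1 at chr19:56722117-56725150, Adra2a at chr19:54045259-54048982 and Adra1a at chr14:66635251-66771240. Adrb3, the β3 receptor of adipocytes, had the highest level per kb of exon of the 4. It was at 249, 526 and 556 CPM in wild-type mice and 742, 232 and 496 CPM in HY/HY mice at 30°C. The values at 8°C were 331, 381 and 462 CPM in wild-type mice and 622, 572 and 497 CPM in HY/HY mice. The spread was wide at 30°C, where the highest HY/HY library had 742 CPM and the lowest 232 CPM, and it was narrow at 8°C, where the 3 HY/HY libraries lay above the 3 wild-type libraries. The fold change of Adrb3 from 30°C to 8°C was 0.883 in wild-type mice (95% interval 0.503 to 1.55, edgeR adjusted p = 0.757) and 1.15 in HY/HY mice (0.656 to 2.02, adjusted p = 0.839). Between genotypes at 8°C it was 1.44 (0.820 to 2.53, adjusted p = 0.447), and the exact permutation test gave p = 0.1, the smallest that 3 libraries against 3 allow.

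Adrb1, the β1 receptor, differed more between genotypes than between temperatures in its measured values. It was at 15.2, 10.1 and 7.33 CPM in wild-type mice and at 4.69, 7.30 and 5.20 CPM in HY/HY mice at 30°C. The values at 8°C were 8.10, 14.9 and 11.3 CPM in wild-type mice and 4.73, 6.25 and 5.93 CPM in HY/HY mice. All HY/HY libraries lay below all wild-type libraries at both temperatures, by a narrow margin at 30°C. The log2 fold change of HY/HY against wild-type mice was -1.02 ± 0.30 (SE) at 8°C and -0.92 ± 0.29 at 30°C, and neither passed the test over all genes (edgeR adjusted p = 0.0615 and 0.126). The value at 8°C passed it without replicate 1 (adjusted p = 0.0428) or replicate 3 (adjusted p = 0.0396) of wild-type mice at 30°C, and over the 21 alternatives its adjusted p ranged from 0.0138 to 0.228. The change with cold was 0.07 ± 0.28 in wild-type mice and -0.03 ± 0.30 in HY/HY mice on the log2 scale.

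The measured values of the α receptors had opposite signs with cold in wild-type mice, and neither passed the test. Adra1a, the α1A receptor, was at 11.2, 7.04 and 20.1 CPM in wild-type and 7.25, 8.19 and 19.3 CPM in HY/HY mice at 30°C. The values at 8°C were 23.4, 25.4 and 31.4 CPM in wild-type mice and 15.4, 13.2 and 14.5 CPM in HY/HY mice. The 3 wild-type libraries at 8°C were above the other 9 libraries. The log2 change of Adra1a with cold was 1.07 ± 0.39 in wild-type mice (edgeR adjusted p = 0.0641), and it passed the test in 8 of 21 alternatives, among them without wild-type replicate 3 at 30°C (log2 change 1.55, adjusted p = 0.0143) and without HY/HY replicate 3 at 30°C (adjusted p = 0.0182). Over the alternatives its adjusted p ranged from 0.0105 to 0.191. In HY/HY mice it was 0.32 ± 0.39 (adjusted p = 0.748). Without the 2 libraries that stood apart it was 0.77 in wild-type mice (adjusted p = 0.0335) and 0.89 in HY/HY mice (adjusted p = 0.0467). The difference of genotype at 8°C was -0.90 ± 0.39 (adjusted p = 0.198), which passed the test without those 2 libraries (adjusted p = 0.0181) and in a fit of only the groups at 8°C (0.00346). The difference of the 2 cold responses was -0.75 ± 0.55 (adjusted p = 0.561), and without those 2 libraries its sign changed, to 0.12 (adjusted p = 0.919).

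Adra2a, the α2A receptor that restrains cAMP, was the receptor with the lowest level per kb of exon, with 16 to 124 counts a library. It was at 2.81, 4.47 and 0.850 CPM in wild-type and 3.10, 3.68 and 3.54 CPM in HY/HY mice at 30°C. The values at 8°C were 2.30, 1.21 and 1.67 CPM in wild-type mice and 4.08, 3.31 and 4.87 CPM in HY/HY mice. The genotypes did not overlap at 8°C, with HY/HY above wild-type mice, and overlapped at 30°C. The log2 difference between genotypes at 8°C was 1.24 ± 0.46 (fold 2.36, 95% interval 1.17 to 4.73), which did not pass the test over all genes (edgeR adjusted p = 0.133). Wild-type replicate 3 at 30°C, which had 16 counts, weighed on the values: without it the genotype difference at 8°C had an adjusted p of 0.0240 and the change with cold in wild-type mice went from -0.67 (adjusted p = 0.303) to -1.08 (adjusted p = 0.0246). Over all alternatives the adjusted p of the genotype difference ranged from 0.0181 to 0.350.

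Gnas, which encodes the stimulatory G protein α subunit that links the β receptors to adenylyl cyclase, changed the most clearly of the 9 genes. It lies at chr2:174284320-174346744 on mm10 (ENSMUSG00000027523.20), an imprinted locus with several promoters, and its count covers all of its transcripts. It was at 713, 718 and 913 CPM in wild-type mice and at 835, 825 and 987 CPM in HY/HY mice at 30°C. The values at 8°C were 1944, 2032 and 2608 CPM in wild-type mice and 949, 989 and 891 CPM in HY/HY mice. Every wild-type library at 8°C was above the other 9 libraries, of which the highest had 989 CPM, whereas HY/HY libraries at 8°C overlapped with those at 30°C. Gnas rose 2.81-fold with cold in wild-type mice (95% interval 2.17 to 3.64, edgeR adjusted p = 0.000133). In HY/HY mice the fold was 1.07 (0.829 to 1.38, adjusted p = 0.829). At 8°C it was lower in HY/HY than in wild-type mice, with a fold of 0.430 (0.332 to 0.556, adjusted p = 0.00243), and at 30°C the fold was 1.13 (0.877 to 1.46, adjusted p = 0.618). The difference between the cold responses was -1.39 ± 0.24 on the log2 scale (adjusted p = 0.0146), the only one of the 9 genes to pass that test.

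Both calls of Gnas, the rise in wild-type mice and the lower level in HY/HY mice at 8°C, were made under all 21 alternatives, with adjusted p up to 0.00294 and 0.0198. The difference of the cold responses was called under 16 of 20, and its adjusted p was 0.0587 without wild-type replicate 1 at 30°C, 0.0504 without wild-type replicate 3 at 8°C, and 0.0552 and 0.0558 without replicates 1 and 3 of HY/HY mice at 8°C. Beside these levels of Gnas, the summed level of 5 thermogenic adipocyte markers (Ucp1, Cidea, Cpt1b, Elovl3 and Cox8b) was from 7810 to 8695 CPM in wild-type mice at 8°C, from 484.9 to 1579 CPM in HY/HY mice at 8°C and no higher than 209.9 CPM in any library at 30°C, with no marker at 0 in any group. All 5 rose with cold in wild-type mice and were lower in HY/HY mice at 8°C, beside 10.3% and 4.42% of all genes. Of 5 endothelial markers, 4 rose with cold in wild-type mice, beside 10.3% of all genes called higher. The sum of the 5 in these mice went from 451.3 to 717.9 CPM at 30°C to 854.8 to 1161 CPM at 8°C. The part of either cell type in the values of Gnas, Adcy3 and Pde4d was not tested.

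Adcy3, one of the adenylyl cyclases that make cAMP, had the largest fold change with cold of the 9 genes in wild-type mice. It lies at chr12:4133116-4213525. It was at 34.5, 26.4 and 45.8 CPM in wild-type mice and at 32.2, 28.4 and 43.4 CPM in HY/HY mice at 30°C. The values at 8°C were 136, 116 and 159 CPM in wild-type mice and 92.7, 79.8 and 58.9 CPM in HY/HY mice. Wild-type mice at 8°C were highest, HY/HY mice at 8°C lay between without overlap on either side, and both groups at 30°C were lowest. Adcy3 rose 3.87-fold with cold in wild-type mice (95% interval 2.71 to 5.52, edgeR adjusted p = 0.000183), a call made under all 21 alternatives. In HY/HY mice the fold was 2.23 (1.57 to 3.17), with an adjusted p of 0.0758 over all genes. It passed the test under 7 of 21 alternatives, among them without HY/HY replicate 3 at 30°C (adjusted p = 0.0189) and without wild-type replicate 3 at 30°C (adjusted p = 0.0488), and its adjusted p ranged from 0.000657 with DESeq2 to 0.257. Without both libraries that stood apart it also passed, at a log2 change of 1.35 (adjusted p = 0.0102).

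At 8°C, Adcy3 was lower in HY/HY than in wild-type mice (fold 0.562, 0.398 to 0.794, edgeR adjusted p = 0.0486). This call was close to the threshold and was made under 11 of 21 alternatives. The adjusted p was 0.0762 to 0.176 without any 1 of the wild-type libraries at 8°C, 0.0735 to 0.183 without any 1 of the HY/HY libraries at 8°C, 0.0687 without wild-type replicate 1 at 30°C and 0.0568 without HY/HY replicate 1 at 30°C. The 2 cold responses of Adcy3 differed by -0.79 ± 0.32 on the log2 scale, which did not pass the test (adjusted p = 0.271).

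Pde4d, a cAMP phosphodiesterase, was expressed at a low level from a long gene at chr13:108654177-109955969. It was at 4.76, 4.91 and 4.84 CPM in wild-type mice and at 4.77, 4.65 and 7.33 CPM in HY/HY mice at 30°C. The values at 8°C were 9.29, 14.2 and 13.7 CPM in wild-type mice and 7.19, 7.56 and 6.98 CPM in HY/HY mice. The wild-type libraries at 30°C differed little among themselves, and the only HY/HY library at 30°C that reached the level of those at 8°C was replicate 3, which stood apart. Pde4d rose 2.56-fold with cold in wild-type mice (95% interval 1.87 to 3.5, edgeR adjusted p = 0.000883), a call made under all 21 alternatives. The fold in HY/HY mice was 1.30 (0.954 to 1.78, adjusted p = 0.420). At 8°C Pde4d was lower in HY/HY than in wild-type mice (fold 0.586, 0.429 to 0.799, adjusted p = 0.0427), as called under 13 of 21 alternatives. This adjusted p rose to 0.166 and 0.153 without replicates 2 and 3 of wild-type mice at 8°C, to between 0.0929 and 0.144 without any 1 HY/HY library at 8°C, and to 0.0604 and 0.0532 without replicates 1 and 2 of wild-type mice at 30°C. The difference of the cold responses was -0.97 ± 0.29 (adjusted p = 0.122).

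Pde3b, the phosphodiesterase through which insulin lowers cAMP in adipocytes, was the more abundant of the pair and lies at chr7:114415222-114537938. It was at 109, 104 and 123 CPM in wild-type mice and at 127, 75.7 and 237 CPM in HY/HY mice at 30°C. The values at 8°C were 152, 207 and 221 CPM in wild-type mice and 212, 247 and 341 CPM in HY/HY mice. Its highest group was HY/HY mice at 8°C, unlike Pde4d, and its values in the genotypes overlapped at both temperatures. The fold with cold was 1.72 in wild-type mice (1.05 to 2.85, edgeR adjusted p = 0.102) and 1.82 in HY/HY mice (1.10 to 3, adjusted p = 0.264). Neither passed the test, and the 2 responses differed by 0.08 on the log2 scale with a 95% interval from -0.94 to 1.09. Without HY/HY replicate 3 at 30°C both passed it, with an adjusted p of 0.0228 in wild-type mice and, at a log2 change of 1.40, 0.0205 in HY/HY mice, and without HY/HY replicate 2 at 30°C that in wild-type mice did (adjusted p = 0.0384). Without both libraries that stood apart only the change in HY/HY mice passed it, at a log2 value of 1.39 (adjusted p = 0.0195). The genotypes differed by 0.47 ± 0.33 at 8°C (adjusted p = 0.446).

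Rgs2, which speeds up the switching off of G proteins, did not pass any test. It lies at chr1:143999338-144004149. It was at 15.8, 25.7 and 50 CPM in wild-type mice and at 12.9, 11.9 and 27.2 CPM in HY/HY mice at 30°C. The values at 8°C were 37.8, 26.6 and 44.4 CPM in wild-type mice and 38.7, 26.3 and 35.2 CPM in HY/HY mice. Both groups at 8°C covered nearly the same range, and replicate 3 was the highest library of each group at 30°C. The log2 change with cold was 0.25 ± 0.40 in wild-type mice (edgeR adjusted p = 0.676) and 0.95 ± 0.41 in HY/HY mice (adjusted p = 0.312).

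**Figure D2:**
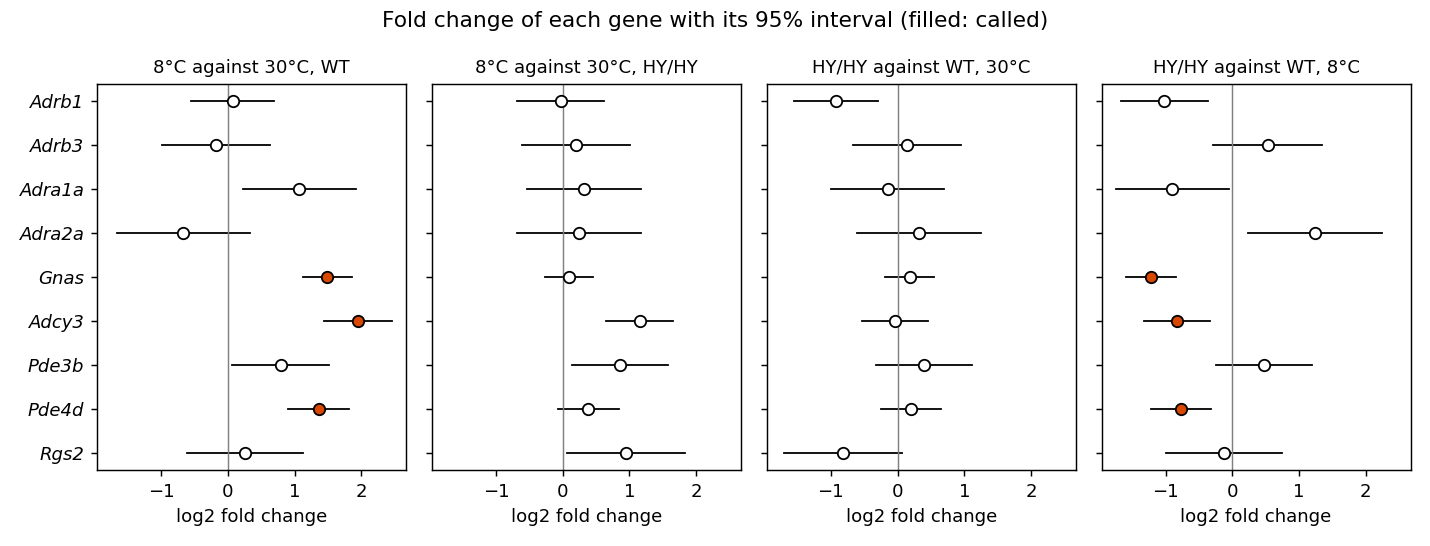
Log2 fold change (x axis) of each of the 9 genes (y axis) in 4 comparisons, with the 95% interval derived from the F statistic of the edgeR test as a line. Filled points passed the adjusted p and the fold limit: Gnas, Adcy3 and Pde4d were higher at 8°C in wild-type mice and lower in HY/HY than in wild-type mice at 8°C, and no gene passed in the other comparisons.

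Over the 9 genes, 3 were called higher with cold in wild-type mice, where 10.3% of all genes tested were called higher and 17.3% in either direction, and none was called lower. None was called with cold in HY/HY mice by edgeR, where 0.248% of all genes were called, although 3 had an unadjusted p under 0.05 and DESeq2 called 1, Adcy3. At 8°C 3 of the 9 were called lower in HY/HY mice, against 4.42% of all genes called lower and 5.93% in either direction. At 30°C none was called by edgeR or DESeq2, against 1.00% of all genes, and 1 had an unadjusted p under 0.05. For the difference of the cold responses 1 of 9 was called, against 2.24% of all genes in either direction and 2.07% with a lower response in HY/HY mice. The comparisons with wild-type mice at 8°C share those libraries and are not independent of each other. The median log2 change with cold of the 9 genes was 0.79 in wild-type and 0.32 in HY/HY mice, beside -0.069 and -0.015 over all genes.

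The 4 receptors had a median log2 change with cold of -0.06 in wild-type mice, with a range from -0.67 to 1.07, and the 5 other genes had a median of 1.36 and a range from 0.25 to 1.95. Of the latter, 3 of 5 were called higher in wild-type mice, beside 10.3% of all genes. The order of levels was read per kilobase of exon, with lengths from an mm9 annotation and so approximate. In wild-type mice at 8°C, Gnas came first at 196 ± 32.2 CPM per kb (SD, n = 3), followed by Adrb3 at 135 ± 22.8, Pde3b at 28.0 ± 5.28, Adcy3 at 22.0 ± 3.45, Rgs2 at 10 ± 2.47, Adrb1 at 4.58 ± 1.36, Adra1a at 3.06 ± 0.476, Pde4d at 0.893 ± 0.194 and Adra2a at 0.454 ± 0.145. Among neighbors in that order, the libraries of Pde3b and Adcy3 and those of Adrb1 and Adra1a overlapped. In the 3 other groups Adrb3 came before Gnas, at 195 ± 21.7 against 84.3 ± 4.43 CPM per kb in HY/HY mice at 8°C, where they did not overlap, and Pde4d came last. Exon lengths are the union over the annotated transcripts of a gene.

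Within a library, Adra1a stood at 6.83 ± 0.212 counts per 100 counts of Adrb3 in wild-type libraries at 8°C (SD, n = 3), at 2.56 ± 0.311 in HY/HY mice at 8°C, and at 3.15 ± 1.64 and 2.80 ± 1.59 in wild-type and HY/HY mice at 30°C. The first was above each other group in every library, with the smallest p that the exact permutation test allows, 0.1, for 8°C against 30°C in wild-type mice and for the genotypes at 8°C. Adrb1 stood at 2.93 ± 0.840 per 100 counts of Adrb3 in wild-type and 1.02 ± 0.226 in HY/HY mice at 8°C (exact permutation p = 0.1). The genotypes at 8°C overlapped for Adra2a, at 0.458 ± 0.207 per 100 counts of Adrb3 in wild-type and 0.738 ± 0.213 in HY/HY mice (exact permutation p = 0.3). Pde3b stood at 142 ± 33.5 per 100 counts of Adcy3 in wild-type mice at 8°C against 372 ± 184 in HY/HY mice (exact permutation p = 0.1), and Pde4d at 9.20 ± 2.75 against 9.70 ± 2.06 (exact permutation p = 0.8). Against the cyclase gene, the genotypes at 8°C thus did not overlap for Pde3b and overlapped for Pde4d.

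Across the 12 libraries, which share their group structure, the log2 levels of Gnas, Adcy3 and Pde4d moved together, with Pearson r of 0.88 for Gnas and Adcy3, 0.92 for Gnas and Pde4d and 0.90 for Adcy3 and Pde4d. Adra1a had an r of 0.82 with Gnas and 0.84 with Adcy3. Adrb3 had an r of -0.60 with Adrb1, and between -0.09 and 0.07 with Gnas, Adcy3 and Pde4d. These are descriptions over n = 12 libraries in 4 groups. The genes most like Gnas by this measure were Mrps36 (r = 0.985), Gmnn (0.984) and Dph3 (0.983), and those most like Adcy3 were Atp6v0a2 (0.987), Slc25a20 (0.985), the mitochondrial carrier of acylcarnitines, and C1qtnf12 (0.981). Pde4d was most like Azi2 (0.979), 2300009A05Rik (0.970) and Hadhb (0.967), a subunit of the mitochondrial trifunctional protein of fatty acid oxidation. Pde3b was most like the insulin receptor gene Insr (0.955), Acss3 (0.951) and Acadsb (0.951), and Adrb3 was most like Slc43a1 (0.954), Gbp11 (0.917) and Ffar2 (0.875). For Rgs2 they were Irs3 (0.924), Cnpy2 (0.921) and Alad (0.906), for Adra1a Ccnyl1 (0.952), Aurkaip1 (0.951) and Ilrun (0.951), for Adra2a Phip (0.948), Ccdc125 (0.939) and Dnajc10 (0.937), and for Adrb1 Hnrnpab (0.900), Zc3h15 (0.897) and Midn (0.890).

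A further 97 genes of the same pathway were listed by function, and 80 passed the filter on low counts. With cold in wild-type mice, 17 of these 80 were called higher and 2 lower, beside 10.3% and 6.93% of all genes. In HY/HY mice 1 was called, Ucp1, which was higher, beside 0.181% of all genes called higher. Between genotypes at 8°C 3 were called higher and 6 lower in HY/HY mice, beside 1.51% and 4.42% of all genes. At 30°C 1 was called, Gnai1, which was higher in HY/HY mice, beside 0.562% of all genes called higher. The median log2 change of the 80 genes was near that of all genes in each comparison, for instance 0.12 beside -0.069 with cold in wild-type mice.

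**Figure D3:**
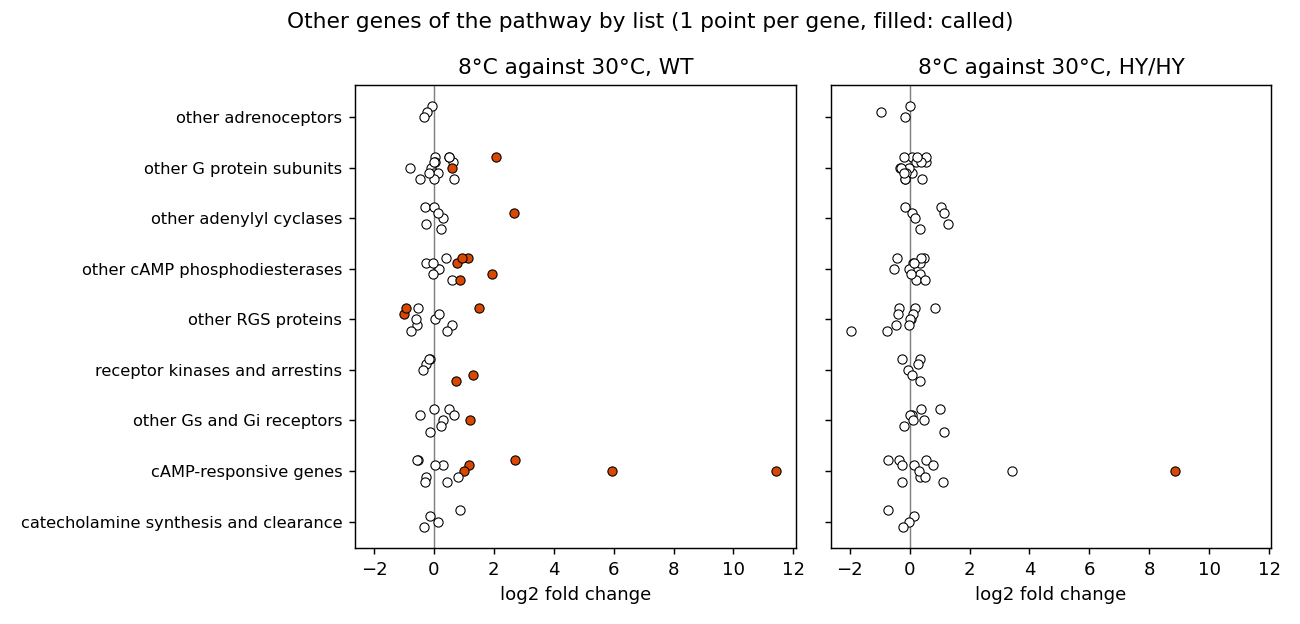
Log2 fold change with cold (x axis) in wild-type mice (left) and HY/HY mice (right) of the 80 further pathway genes that passed the filter, by list (y axis). Each point is 1 gene and filled points passed the test: 19 in wild-type mice and Ucp1 in HY/HY mice.

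Among the other phosphodiesterases, 5 of 12 rose with cold in wild-type mice and none fell, beside 10.3% and 6.93% of all genes called higher and lower. Pde1c had the largest log2 change (1.93 ± 0.48, edgeR adjusted p = 0.0134) at 1.21 to 1.71 CPM at 8°C, followed by Pde4a (1.13 ± 0.14, adjusted p = 0.000257), Pde8a (0.94 ± 0.22, adjusted p = 0.0100) and Pde7b (0.87 ± 0.16, adjusted p = 0.00295), and the fifth was Pde4b. Pde4a, a gene of the same subfamily as Pde4d, had the same pattern, at 16.2, 15.1 and 18.7 CPM in wild-type mice at 30°C, rising to 42.7, 33.3 and 32.7 CPM at 8°C, and at 20.1, 22.5 and 17.1 CPM in HY/HY mice at 8°C. It was lower in HY/HY than in wild-type mice at 8°C by a log2 change of -0.87 ± 0.14 (adjusted p = 0.00531), and both calls held under all 21 alternatives. Pde7a was higher in HY/HY mice at 8°C (0.62 ± 0.16, adjusted p = 0.0415). The rises of Pde1c and Pde8a were also called under every alternative that gave a value, and those of Pde4b and Pde7b were not called on library totals, with an adjusted p of 0.265 for Pde4b and, below the fold limit, 0.0243 for Pde7b. That of Pde4b also lost its call without any 1 wild-type library, HY/HY replicate 2 at 30°C or HY/HY replicate 1 at 8°C, with an adjusted p up to 0.129, or without both libraries that stood apart (0.0554), and the higher Pde7a in HY/HY mice lost it without wild-type replicate 1 at 30°C or any 1 library at 8°C except replicate 2 of HY/HY mice (up to 0.148).

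Of the 3 other adrenergic receptors that could be tested, none was called in any comparison. Among 16 further G protein subunits, Gnao1 (log2 change 2.07 ± 0.38, edgeR adjusted p = 0.00292) and Gng11 (0.60 ± 0.15, adjusted p = 0.0157) rose with cold in wild-type mice. Gnai1, an inhibitory α subunit, was higher in HY/HY mice at both temperatures, by 1.14 ± 0.22 at 8°C (adjusted p = 0.0114) and 1.24 ± 0.22 at 30°C (adjusted p = 0.0320). It was at 42.1, 55.4 and 32.8 CPM in wild-type and 103, 80.7 and 124 CPM in HY/HY mice at 30°C, and at 67.8, 65.1 and 71.1 CPM in wild-type and 130, 124 and 194 CPM in HY/HY mice at 8°C. The HY/HY libraries were above all wild-type libraries of the same temperature. The call at 30°C was made under 12 of 21 alternatives. It was lost in a fit of only the groups at 30°C (adjusted p = 0.213) and on library totals (0.0522). It was also lost without replicate 1 (0.0913) or replicate 3 (0.0609) of wild-type mice at 30°C, without HY/HY replicate 3 at 30°C (0.0680), and without any 1 wild-type library at 8°C (up to 0.0635) or HY/HY replicate 1 at 8°C (0.0515). The call at 8°C was lost without replicate 2 of wild-type mice (0.0513) or replicate 3 of HY/HY mice (0.0537) at 8°C. Gng11 was lower in HY/HY than in wild-type mice at 8°C (-0.64 ± 0.15, adjusted p = 0.0269), with an adjusted p of 0.0618 to 0.119 without any 1 library at 8°C except replicate 2 of HY/HY mice. Its rise with cold had an adjusted p of 0.0541 without wild-type replicate 2 at 30°C, 0.0501 and 0.0563 without replicates 1 and 2 of wild-type mice at 8°C, and, at a log2 change of 0.26, 0.196 on library totals. Without both libraries that stood apart its log2 change was 0.44, below the fold limit.

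Of 7 further adenylyl cyclases, only Adcy10, the soluble cyclase, was called, and it rose with cold in wild-type mice (2.67 ± 0.51, edgeR adjusted p = 0.00356), from 1.66 to 2.13 CPM at 30°C to 6.93 to 15.6 CPM at 8°C. HY/HY replicate 2 at 30°C also had 12.3 CPM. Adcy10 was called under all 21 alternatives. Among receptor kinases and arrestins, which desensitize receptors, Grk3 rose with cold in wild-type mice (1.31 ± 0.26, adjusted p = 0.00404) and was lower in HY/HY than in wild-type mice at 8°C (-1.60 ± 0.26, adjusted p = 0.00483). It was at 94.5, 65.5 and 62.2 CPM in wild-type and 24.5, 28.8 and 20.1 CPM in HY/HY mice at 8°C, and both calls held under all 21 alternatives. Grk5 rose with cold in wild-type mice (0.75 ± 0.21, adjusted p = 0.0239), a call lost without replicate 1 or 2 of wild-type mice at 30°C, without replicate 1 or 3 of wild-type mice at 8°C and on library totals, with an adjusted p from 0.0602 to 0.0924. The prostaglandin receptor Ptger3 rose with cold in wild-type mice (1.19 ± 0.31, adjusted p = 0.0175) as the only one of 8 other receptors that couple to stimulatory or inhibitory G proteins. Its adjusted p was 0.0664 without wild-type replicate 2 at 30°C, 0.0520 without wild-type replicate 1 at 8°C and, at a log2 change of 0.85, 0.0556 on library totals.

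Among the other RGS genes, Rgs7 rose with cold in wild-type mice (1.5 ± 0.23, edgeR adjusted p = 0.000828, called under all 21 alternatives), while Rgs11 (-0.99 ± 0.33, adjusted p = 0.0449) and Rgs18 (-0.92 ± 0.30, adjusted p = 0.0448) fell. Rgs18, which is known from blood cells, was higher in HY/HY than in wild-type mice at 8°C (1.21 ± 0.31, adjusted p = 0.0344), at 1.44 to 1.62 against 0.453 to 0.770 CPM. Beside it, the summed level of 5 macrophage markers was from 203.9 to 272.1 CPM in HY/HY and from 118.4 to 132.7 CPM in wild-type mice at 8°C, with none at 0 and 2 of 5 called higher beside 1.51% of all genes, and its part in the value was not tested. The fall of Rgs11 was called under 12 of 21 alternatives, with an adjusted p up to 0.160 without wild-type replicate 2 at 30°C, and that of Rgs18 under 7 of 20, up to 0.163 without wild-type replicate 2 at 8°C. Without both libraries that stood apart neither fall was called (adjusted p = 0.0772 for Rgs11 and 0.140 for Rgs18). The difference of Rgs18 at 8°C was called under 12 of 20, up to 0.132 without wild-type replicate 2 at 8°C.

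Of 13 genes known to be induced by cAMP, 5 rose with cold in wild-type mice, beside 10.3% of all genes called higher. They were Ucp1 (11.41 ± 1.10), Dio2 (5.95 ± 0.93), Ppargc1a (2.72 ± 0.35), Nr4a1 (1.16 ± 0.38) and Nr4a2 (1.00 ± 0.26), as log2 changes with adjusted p from 5.08e-05 to 0.0430 in edgeR. In HY/HY mice Ucp1, the uncoupling protein of thermogenic adipocytes, also rose (8.87 ± 1.02, adjusted p = 0.00420, or 0.0950 in a fit of the HY/HY libraries alone), to 211.7, 610.5 and 903.6 CPM against 5048 to 6055 CPM in wild-type mice. At 8°C Ucp1 (-3.25 ± 0.76), Nr4a1 (-1.59 ± 0.39) and Ppargc1a (-1.33 ± 0.34) were lower in HY/HY mice. The immediate early genes Fos, Fosb, Junb and Atf3 were on the same list and were not called in any comparison. The cold response of Ppargc1a, a coactivator of mitochondrial genes, differed between genotypes by -2.19 ± 0.48 (adjusted p = 0.0390). The Nr4a1 rise lost its call without wild-type replicate 3 at 8°C (adjusted p = 0.199) and 6 other libraries taken singly, and the Nr4a2 rise without replicate 1 or 2 of wild-type mice at 30°C or replicate 2 or 3 of wild-type mice at 8°C (up to 0.0747). The 3 differences of genotype at 8°C lost theirs without single libraries at 8°C, with an adjusted p up to 0.148 for Ppargc1a without replicate 2 of wild-type mice, 0.133 for Nr4a1 without replicate 3 of wild-type mice and 0.101 for Ucp1 without replicate 3 of HY/HY mice. That of the Ppargc1a responses held only without HY/HY replicate 1 at 30°C, wild-type replicate 1 at 8°C or HY/HY replicate 2 at 8°C among single libraries left out, with an adjusted p up to 0.116, and it was lost without both libraries that stood apart (0.0684). Of 9 genes of catecholamine synthesis and clearance, 4 passed the filter and none was called. Th, the first enzyme of noradrenaline synthesis, had 2 counts in 1 wild-type library at 30°C and 0 in the other 11.

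Strand mattered for 3 of the 9 genes. The values above are reads on the sense strand of each gene. When the deposited counts made without regard to strand were used, Gnas kept 0.367% to 0.909% of its counts, Adcy3 35.1% to 47.9% and Adrb3 81.2% to 92.1%, while the other 6 kept 100% or slightly more. In the mm9 annotation, exons of AF085738 and Nespas on the opposite strand cover 13.1% and 8.83% of the exon bases of Gnas, and those of Cenpo cover 22.1% of Adcy3. In RefSeq on mm10, Gm45470 overlaps Adrb3, Cenpo overlaps Adcy3, and Gnasas1 and Gm30189 overlap Gnas, by position and without regard to strand. AF085738 had 1 to 21 counts a library against 10970 to 40650 for Gnas. The part of these overlaps in the counts lost without strand was not tested. On counts without strand, the log2 difference of Adcy3 between genotypes at 8°C was -0.51 rather than -0.83 and was not called (adjusted p = 0.186), whereas the calls of Gnas were kept.

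**Figure D4:**
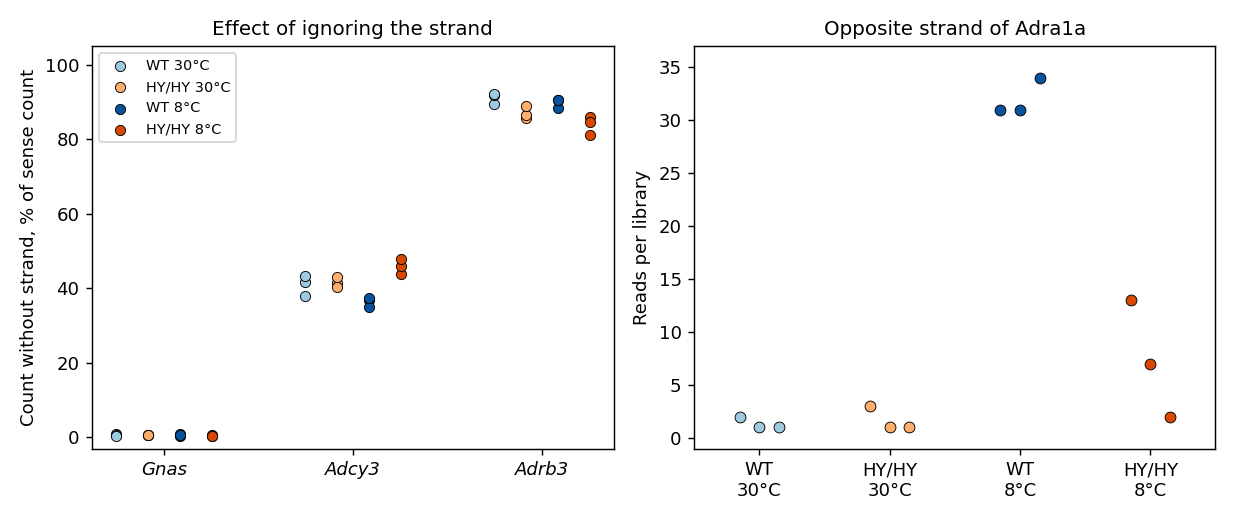
Left: count of Gnas, Adcy3 and Adrb3 without regard to strand as a percentage of the sense count (y axis), 1 point per library, colored by group; Gnas keeps under 1% in all 12 libraries. Right: reads on the strand opposite to Adra1a per library (y axis) by group, with 31 to 34 reads in wild-type mice at 8°C and 1 or 2 in wild-type mice at 30°C.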

How the data were processed

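RNA from scWAT was sequenced as paired 50-base reads from TruSeq libraries. The authors trimmed reads with fastp and aligned them with STAR to mm10, and deposited STAR's gene counts, raw counts without normalization, with 1 column that ignores strand and 1 per strand. The column of the sense strand was used here, and the others only where stated. Symbols were taken for 32589 gene IDs. Genes kept by filterByExpr, 16540 in all, were tested with edgeR 4.0.16 quasi-likelihood on TMM-scaled counts, with 1 mean per group and 8 residual degrees of freedom. P-values were adjusted by Benjamini-Hochberg over all genes. Calls needed an adjusted p below 0.05 together with a fold above 1.5 or below 0.67, and the difference of cold responses at the adjusted p alone. Exact permutation tests were two-sided. The genes most like each of the 9 were the 3 with the highest Pearson r of log2 CPM. At most 4 called genes per list and comparison were named by size of change, and Pde4b, Nr4a2, Th and the uncalled immediate early genes were named after their values were seen. The genes and lists were chosen with earlier results of these data known. The test was checked on simulated counts. Alternatives were DESeq2 1.42.0, library totals, other filters, fits of 2 groups, a replicate block, both strands together and each library left out. Depth is counted in reads without molecular identifiers. In the 12 libraries unmapped reads took 25.07% to 28.75% and reads at several places 26.71% to 32.21%. The reference genome available was mm9 and served only for exon lengths and overlaps.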

Additional observations from a re-analysis of the deposited data

Results flagged for a closer look

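The response to cold differed between the genotypes for Gnas, by -1.39 on the log2 scale (HY/HY minus wild-type mice, edgeR adjusted p = 0.0146), and for Ppargc1a, by -2.19 (adjusted p = 0.0390), by a test of the difference itself. That of Gnas was called under 16 of 20 alternatives and that of Ppargc1a under 9 of 20, with an adjusted p up to 0.0587 and 0.116. Gnas rose in all 3 wild-type libraries at 8°C above every library at 30°C.

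Reads on the strand opposite to a gene lay outside the comparisons of the report. Groups with a mean of at least 10 such reads were considered. For 4 genes, the CPM of these reads was higher in every library than in every library of the control group. The genes were picked for this separation, so no test is given, and the share of all genes that separate in this way was not computed. The opposite strand of Adra1a had 31, 31 and 34 reads in wild-type mice at 8°C, against 2, 1 and 1 in wild-type mice at 30°C, 13, 7 and 2 in HY/HY mice at 8°C, and 3, 1 and 1 in HY/HY mice at 30°C. This was a mean of 2.27 CPM in wild-type mice at 8°C against 0.060 CPM at 30°C, and 6.95 to 9.84 opposite reads for each 100 sense reads of Adra1a, against 0.265 to 0.806 at 30°C. The opposite strand of Adrb3 had a mean of 1.59 CPM in wild-type mice at 8°C against 0.609 at 30°C, and that of Gnas 1.33 against 0.597. For each 100 sense reads of Gnas, the wild-type groups overlapped, at 0.0467 to 0.0764 opposite reads at 8°C and 0.0466 to 0.121 at 30°C. Those of Adrb3 did not overlap, at 0.333 to 0.538 and 0.11 to 0.182. The opposite strand of Pde3b had a mean of 0.703 CPM in HY/HY mice at 8°C. It had 0.434 CPM in HY/HY mice at 30°C and 0.217 CPM in wild-type mice at 8°C. Its 0.434 CPM in HY/HY mice at 30°C was above the 0.188 CPM of wild-type mice at 30°C. For each 100 sense reads of Pde3b, the groups overlapped in each of these comparisons. HY/HY mice had 0.19 to 0.33 opposite reads at 8°C and 0.153 to 0.728 at 30°C. Wild-type mice had 0.0582 to 0.196 at 8°C and 0.125 to 0.209 at 30°C.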

How the results depend on the processing

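Of 936 values of the 9 genes under alternatives, 842 kept their sign and their side of the threshold, 33 gained a call, 22 lost one and 39 changed sign without being called either way. The cause was not tested in any case. Of the 9 genes, 3 were called with cold in wild-type mice, and 5 in a fit of only those groups, 5 with the replicate block and 3 to 5 with a replicate left out. With cold in HY/HY mice 0 were called, and 1 with each of DESeq2, no filter on low counts, the block and both strands together, 3 without the 2 libraries that stood apart (chosen after seeing the data), and 0 to 2 with a replicate left out. Between genotypes at 8°C 3 were called, and 1 on library totals, 6 in a fit of only those groups and 1 to 5 with a replicate left out. For the difference of the cold responses 1 was called, and 2 with DESeq2 and 0 to 1 with a replicate left out. Of the 80 pathway genes, 1 was called with cold in HY/HY mice, and 5 with DESeq2, 2 without filter, 0 with a minimum of 10 counts, 0 in a fit of only those groups, 3 with the block, 9 without the 2 libraries and 1 to 6 with a replicate left out. Between genotypes at 8°C the 9 calls became 18 in a fit of only those groups and 2 to 11 with a replicate left out. At 30°C the 1 call became 5 with DESeq2, 0 on library totals, 4 without filter, 0 in a fit of only those groups and 0 to 3 with a replicate left out. For the difference of the cold responses the 1 call became 6 with DESeq2, 0 on totals, 6 without filter, 2 with a minimum of 10 counts, 2 with the block, 0 without the 2 libraries and 0 to 2 with a replicate left out. The samples were not treated as paired by replicate number, except in the fit with the replicate block. Deviations of same-numbered libraries correlated at -0.069 to 0.35 (median 0.11) and those of other pairs at -0.29 to 0.18 (median -0.051). Of 12 libraries, 5 correlated best with their own number.

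The following log2 values changed sign. On library totals, with cold in wild-type mice Adrb1 was -0.29 and Rgs2 -0.05, in HY/HY mice Gnas was -0.02, between genotypes at 8°C Rgs2 was 0.01, and the difference of the responses of Adrb1 was 0.13. On both strands together Gnas with cold in HY/HY mice was -0.41 and Adcy3 between genotypes at 30°C 0.01. Without the 2 libraries that stood apart, Pde3b and Pde4d at 30°C were -0.19 and -0.03, and the difference of the responses of Adra1a was 0.12. With a replicate left out, values between genotypes at 30°C ranged from -0.22 to 0.19 for Adcy3, -0.71 to 0.33 for Adra1a, -0.09 to 0.89 for Adra2a, -0.28 to 0.48 for Adrb3, -0.13 to 0.71 for Pde3b and -0.03 to 0.32 for Pde4d, and those at 8°C from -0.30 to 0.06 for Rgs2. With cold in wild-type mice they ranged from -0.16 to 0.39 for Adrb1, -0.46 to 0.02 for Adrb3 and -0.06 to 0.81 for Rgs2, and in HY/HY mice from -0.16 to 0.19 for Adrb1 and -0.13 to 0.63 for Adrb3. The differences of the cold responses ranged from -0.42 to 0.13 for Adrb1 and -0.24 to 0.60 for Pde3b. With 3 libraries a group, an interval of 95% for a log2 change of Adrb3 with cold in wild-type mice ran from -0.99 to 0.63, and Adra2a rested on 16 to 124 counts.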
